A study of Mus musculus with 33 samples.

Results

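Homologous recombination repairs broken and stalled replication forks by copying an intact DNA molecule, and the Fanconi anaemia pathway unhooks DNA crosslinks and hands the break that results to the same machinery. A cell of the resting adult liver rarely copies its DNA, and many genes of both pathways are transcribed mainly while DNA is being copied. The genes described here are 38 mouse genes of these pathways, picked by name: 6 that bind and resect broken ends, 5 signalling kinases and their activators, 5 BRCA proteins and partners, 9 genes of strand exchange and its helpers, 8 subunits of the Fanconi core complex, the 2 subunits of the ID2 complex that the core complex marks with ubiquitin, and 3 parts of the nuclease complexes that cut joined DNA. All 38 were among the 21671 genes of the deposited table, and all 38 passed the filter on low values in both arms of the study.

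Total RNA was sequenced from C57BL/6 mice in a study of how MYC and β-catenin cooperate in liver tumours. In the day 4 arm, 6- to 8-week-old mice received AAV8-TBG-CRE, a virus in which a hepatocyte promoter drives Cre recombinase, and livers were taken 4 days later. Its groups of 5 livers each were wild type, Ex3 (a β-catenin allele, b-cat Ex3, from which Cre removes exon 3, leaving a protein that escapes degradation), MYC (R26-lslMYC, a transgene that Cre switches on) and MYC+Ex3 (both alleles). All 20 livers had the virus, wild type included. In the tumour arm, 3 nodules came from Alb-CreERT2/R26-lslMYC mice and 3 from Alb-CreERT2/R26-lslMYC/b-cat Ex3 mice, in which Cre is made from the albumin promoter, and the controls were 7 wild-type livers taken 4 days after 4-OHT, the drug that activates CreERT2. The ages of the tumour mice and of their controls are not in the labels, which do not list Cre for the controls either. Nodule and normal liver therefore differ in tissue as well as in the oncogenes, and may also differ in Cre and in age, which the labels leave unknown.

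Libraries held 3.75 to 7.31 M reads in genes at day 4 and 6.65 to 9.82 M in the tumour arm. The unit is RPKM, in which reads are divided by gene length and by a library total. That total was set differently in the 2 arms, so levels are compared only within an arm. Relative to day 4 wild-type liver 1, reads in genes per unit of that total were 0.222 to 0.266 in 4-OHT livers. They were 0.246 to 0.280 in MYC and 0.256 to 0.296 in MYC+Ex3 tumours. The RPKM scale thus also differs somewhat within the tumour arm, and rescaling and reads per M reads in genes are among the alternatives. Axin2, a target of β-catenin, checked the Ex3 labels: it lay at 10.6 to 24.9 RPKM in Ex3 livers against 2.73 to 4.30 in wild type, and at 7.63 to 11.3 in MYC+Ex3 tumours against 0.0946 to 0.660 in MYC tumours. Hepatocyte genes (8 of 8 in the table) summed to 1117 to 2015 RPKM in the day 4 livers and 208 to 351 in the tumour arm, with none at 0. In 10 of the 20 day 4 livers (3 wild type, 3 Ex3, 1 MYC and 3 MYC+Ex3) the skin keratins Krt5, Krt14 and Krt17 summed to more than 1 RPKM, and the main counts are given below also within the keratin-free livers. The RPKM of Mki67, a marker of dividing cells, was 0.936 to 4.67 in wild-type, 26.7 to 76.8 in MYC and 47.5 to 89.8 in MYC+Ex3 livers, and 4.53 to 9.37 in 4-OHT livers against 12.7 to 29.6 in the tumours. In Ex3 livers it was 24.3 and 28.0 in replicates 3 and 4, and 3.05 to 4.25 in the other 3. The part of cell division in the changes of the repair genes was not tested, and in bulk RNA more expressing cells cannot be told apart from more RNA in each cell. The labels do not state that the samples of a group are separate animals, so the p-values measure the spread between these samples.

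Promoter sequences show what some of these genes carry just upstream of their starts, and are given because most of the genes moved together. RefSeq's table for GRCm38.p6, a later build than the mm9 of the submitters' processing notes, held a promoter (250 bases before to 50 after the start) for 30 of the 38 genes, and not for Rad51d, Rad54b, Xrcc2, Exo1, Rbbp8, Rad50, Nbn or Fancd2. A motif of the E2F family, which binds cell cycle genes, was searched on both strands in 4 spellings, with TTCCCGC first, then TTGGCGC as well as TTCGCGC and lastly TTGCCGC. It was found in a promoter of 17 of the 30 genes, against 10.9% of all 27025 genes with a promoter there. Among the 21 of these 30 genes that were called higher in MYC+Ex3 livers it was in 15, and among the other 9 in 2. The CHR motif (either TTTGAA or else TTCGAA) was found in 4 of the 30 genes (21.7% of all genes), CCAAT in 18 (41.1%) and the MYC-type E-box CACGTG in 2 (8.09%). These matches are descriptions of letters in a window, with no test, and show no binding. The stretches below run 5′ to 3′ on the strand of the gene, with capitals for the E2F-type motif on either strand; the first 6 genes rose in MYC and MYC+Ex3 livers and hold it, and the last 2 were called in no comparison and hold none in the whole window.
Fancb, chrX:164980380-164980466, plus strand: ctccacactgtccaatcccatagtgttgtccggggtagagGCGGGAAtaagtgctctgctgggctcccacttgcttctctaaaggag
Chek2, chr5:110839791-110839877, plus strand: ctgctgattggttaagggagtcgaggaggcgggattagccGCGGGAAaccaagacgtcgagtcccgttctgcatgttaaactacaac
Brca2, chr5:150522413-150522499, plus strand: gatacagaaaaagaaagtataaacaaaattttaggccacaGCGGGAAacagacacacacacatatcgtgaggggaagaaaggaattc
Topbp1, chr9:103305155-103305214, plus strand: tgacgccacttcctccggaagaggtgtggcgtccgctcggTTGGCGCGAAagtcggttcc
Blm, chr7:80535120-80535180, minus strand: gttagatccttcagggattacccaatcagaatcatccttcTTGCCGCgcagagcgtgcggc
Bard1, chr1:71103147-71103220, minus strand: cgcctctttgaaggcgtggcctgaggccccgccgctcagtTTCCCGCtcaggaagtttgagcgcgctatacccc
Mus81, chr19:5488403-5488492, minus strand: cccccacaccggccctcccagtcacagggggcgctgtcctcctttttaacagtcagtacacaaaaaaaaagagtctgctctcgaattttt
Fancc, chr13:63431746-63431835, minus strand: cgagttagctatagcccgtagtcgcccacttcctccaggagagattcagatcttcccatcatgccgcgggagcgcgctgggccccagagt
In Topbp1 the capitals span 2 overlapping motifs, one on each strand, and in Fancb, Chek2 and Brca2 they show TTCCCGC read from the opposite strand.

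Ex3 alone was compared with wild type at day 4 for the early response to β-catenin. None of the 38 genes passed the test (0 higher, 0 lower; limma, adjusted p under 0.05), where 0.13% of all 16214 genes tested were called, and none had an unadjusted p under 0.05, which 843 of all genes did. The median log2 change of the 38 was 0.12, against 0.01 over all genes tested. Chek1, the kinase that restrains the cell cycle while DNA is copied, was the 1 gene whose 5 Ex3 livers (0.722 to 1.75 RPKM) all lay above the 5 wild-type livers (0.254 to 0.573), as 0.937% of all genes did. Its log2 change was 0.53 with a 95% interval of -0.13 to 1.20. Exo1, a nuclease that resects DNA ends, was 0.777 and 0.714 RPKM in Ex3 replicates 3 and 4, and 0.129 to 0.202 in the other 3. Those 2 livers are the ones with high Mki67. They also had 18 and 19 of the 38 genes above every wild-type liver, against 6 to 10 in the other Ex3 livers. Such counts for single livers were not made over all genes, so whether they are particular to the 38 is not known. By Xist and Ddx3y replicates 3 and 4 were the 2 females of the group, and both were keratin-bearing, as was Ex3 replicate 5.

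In MYC+Ex3 livers 27 of the 38 genes rose over wild type and none fell (limma, adjusted p under 0.05), while 14.6% of all genes tested rose and 4.8% fell. The median log2 change over the 38 was 1.12, against 0.02 over all genes. In 23 genes, each of them called, all 5 MYC+Ex3 livers lay above all 5 wild-type livers, as in 11.6% of all genes tested. The called changes ran from 0.57 to 2.55, and the uncalled ones from 0.02 to 1.09, all 11 of them above 0. Within the keratin-free livers, only MYC+Ex3 1 and 2 against wild type 1 and 3, 25 genes were called, and within the keratin-bearing ones 23. The shares of all genes called in these small fits are not given. MYC+Ex3 1 and 2 had the highest Mki67 of the day 4 arm (89.8 and 87.2 RPKM). The changes of all 38 genes by role are plotted for both arms.

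**Figure D1:**
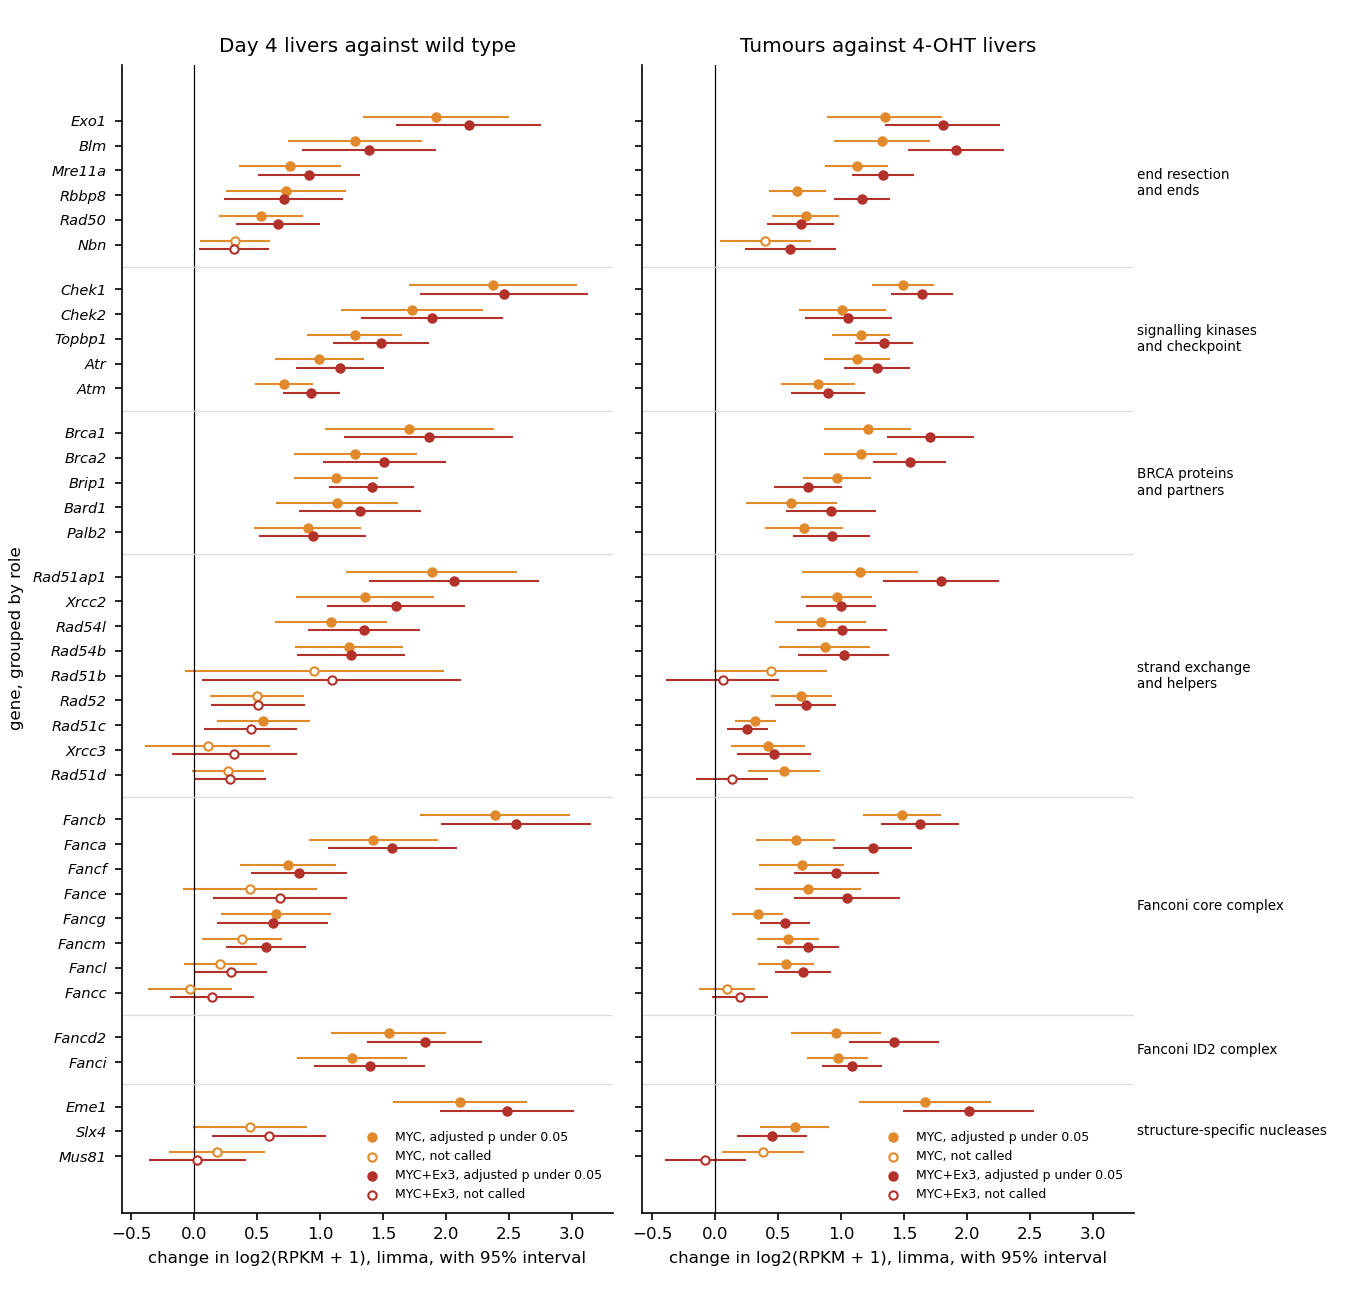
The log2(RPKM + 1) change of each of the 38 genes (horizontal axis) in MYC and MYC+Ex3 day 4 livers against wild type and in both kinds of tumour against 4-OHT livers, grouped by role, with 95% intervals as lines; filled points passed the limma test (adjusted p under 0.05) and open points did not. Chek1, Eme1, Exo1 and Fancb sit far to the right in each comparison, while Fancc was called in none and Mus81 lies near 0 in both MYC+Ex3 comparisons and at 0.38, not called, in MYC tumours.

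Of the genes that bind and resect ends, 5 of 6 rose in MYC+Ex3 livers (median 0.81). Exo1, whose product lengthens the single strand at a break, was at 0.202, 0, 0.0898, 0 and 0.124 RPKM in the wild-type livers. It was at 4.48, 6.45, 1.55, 7.23 and 2.26 in the MYC+Ex3 livers. Every MYC+Ex3 liver was far above every wild-type liver, with 32 to 260 reads in each against 0 to 6. The log2 change was 2.18 ± 0.28 (SE, n = 5 and 5; limma adjusted p = 1.15e-05). Blm, the helicase mutated in Bloom syndrome, rose by 1.39 from 1.34 ± 0.418 to 5.45 ± 2.38 RPKM (SD). Mre11a and Rad50, of the complex that first binds a broken end, rose by 0.91 and 0.67, and Rbbp8, whose product CtIP starts resection, rose by 0.71. The call of Rbbp8 was lost without wild-type liver 1, 3 or 5 or MYC+Ex3 liver 2 or 4 (limma adjusted p 0.0568 to 0.0987), when libraries were rescaled (0.0644), with sex in the model (0.0589) and within the keratin-free (0.0643) and keratin-bearing livers (0.0951). The calls of Mre11a and Rad50 were lost within the keratin-bearing livers (0.196 and 0.0796). Nbn, the third subunit of that complex, went from 19.6 to 24.5 RPKM and did not pass (log2 change 0.31, 95% interval 0.03 to 0.59, limma adjusted p = 0.110). It had the highest wild-type level of the 38 genes and Exo1 the lowest.

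All 5 signalling genes rose (median 1.48). Chek1 was at 0.573, 0.461, 0.254, 0.528 and 0.469 RPKM in wild type and at 6.64, 7.09, 4.79, 12.9 and 5.49 in MYC+Ex3 livers. The lowest MYC+Ex3 liver was several times the highest wild-type liver, and replicate 4 stood above the other 4. Its log2 change was 2.46 ± 0.32 (limma adjusted p = 1.4e-05). Chek2, the partner kinase that answers to ATM, rose by 1.89 from 2.0 to 10.6 RPKM. Topbp1, an activator of ATR, rose by 1.48. The apical kinases Atr and Atm rose by 1.16 and 0.93, and Atm showed little spread, going from 7.25 ± 0.250 to 14.7 ± 0.738 RPKM.

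The 5 BRCA genes rose as well (median 1.41). Brca1 went from 1.27 ± 0.532 to 7.95 ± 4.78 RPKM (log2 change 1.86 ± 0.32, limma adjusted p = 0.000284). Brca2, which prepares resected DNA for strand exchange, rose by 1.51 from 2.63 to 9.36. Brip1, a helicase that binds BRCA1, rose by 1.41, and Bard1, the partner BRCA1 needs as a ubiquitin ligase, by 1.32. Palb2, the bridge between BRCA1 and BRCA2, rose by 0.94 from 0.604 to 2.16 RPKM, with some livers of the groups overlapping; within the keratin-free livers it was not called (limma adjusted p = 0.0708).

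The strand exchange genes split by gene: 4 of 9 rose (median 1.09). Rad51ap1, whose product helps strand invasion, was at 0.944, 0.570, 0.942, 0.326 and 0.870 RPKM in wild type and at 6.28, 7.64, 3.22, 12.2 and 4.35 in MYC+Ex3 livers. The groups did not overlap, and replicate 4 was again the highest. Its log2 change was 2.06 ± 0.33 (limma adjusted p = 0.000111). Xrcc2 rose by 1.60, and the motor proteins Rad54l and Rad54b by 1.35 and 1.25. Of the other 5, Rad52 (0.51, limma adjusted p = 0.0540), Rad51c (0.45, 0.0813), Xrcc3 (0.32, 0.390) and Rad51d (0.28, 0.160) did not pass. Rad51b had a change of 1.09 with the widest interval of the 38 genes, 0.06 to 2.12 (limma adjusted p = 0.131).

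In the Fanconi core complex 5 of 8 genes rose (median 0.65), and its members were far apart. Fancb was at 1.32, 1.29, 1.17, 0.557 and 1.47 RPKM in wild type and at 14.9, 14.5, 6.67, 13.7 and 10.0 in MYC+Ex3 livers. All 5 MYC+Ex3 livers lay above all wild-type livers, and replicate 3 was the lowest of them. At 2.55 ± 0.29 (limma adjusted p = 3.35e-06) it had the largest change of the 38 genes on the log2(RPKM + 1) scale, which understates genes of low RPKM; the folds of the authors' deposited table put Exo1, Chek1, Fancd2 and Eme1 above it. Fanca rose by 1.57 and Fancf by 0.83, which was not called within the keratin-free livers (limma adjusted p = 0.0662). Fancm, the motor protein that anchors the complex to DNA, was at 3.41, 2.88, 2.99, 2.46 and 3.36 RPKM in wild type and at 5.51, 6.65, 3.34, 6.18 and 3.81 in MYC+Ex3 livers. Its log2 change was 0.57 ± 0.15 (limma adjusted p = 0.0111), and 1 MYC+Ex3 liver, replicate 3, lay among the wild-type values. The call was lost when only the 2 groups were fitted (0.0572) and within the keratin-bearing livers (0.202).

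Fancg, a scaffold that joins FANCA to the complex, was at 1.94, 0.951, 1.67, 1.61 and 1.71 RPKM in wild type and at 3.22, 4.90, 2.0, 4.16 and 1.42 in MYC+Ex3 livers. Replicate 5 lay below 4 of the wild-type livers, so the groups overlapped. The log2 change of 0.62 ± 0.21 passed narrowly (limma adjusted p = 0.0435). Leaving out any of 11 single livers ended the call: wild type 2, 3, 4 or 5, MYC+Ex3 1, 2 or 4, Ex3 1, 2 or 5, or MYC 2 (limma adjusted p 0.0508 to 0.141). It was also lost with no filter on low values (0.0608), when only the 2 groups were fitted (0.0958), with sex in the model (0.103) and within the keratin-bearing livers (0.329). Fance (0.68, limma adjusted p = 0.0679), Fancl, the ubiquitin ligase of the complex (0.29, 0.158), and Fancc (0.14, 0.620) did not pass. Both ID2 genes rose: Fancd2 by 1.83, from 0.198 ± 0.0226 to 3.49 ± 1.51 RPKM, and Fanci by 1.39, from 1.15 to 4.92.

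Of the 3 nuclease genes 1 rose, by 2.48, and another had the smallest change of the 38. Eme1, the partner that MUS81 needs to cut DNA, was at 0.250, 0.201, 0.592, 0.831 and 0.410 RPKM in wild type and at 8.88, 11.0, 3.59, 8.45 and 5.59 in MYC+Ex3 livers. The groups were well apart, on 2 to 9 reads in wild type and 30 to 179 in MYC+Ex3 livers. The log2 change was 2.48 ± 0.25 (limma adjusted p = 1.72e-06). Mus81, the catalytic subunit of the same enzyme, was at 17.2, 7.65, 13.7, 8.70 and 8.77 RPKM in wild type and at 11.4, 12.2, 9.67, 12.2 and 9.32 in MYC+Ex3 livers. The MYC+Ex3 values fell inside the wild-type range, with a log2 change of 0.02 (95% interval -0.36 to 0.41), whose sign turned when libraries were rescaled (-0.05). On the RPKM scale the 2 subunits thus went from group means of 0.457 and 11.2 to 7.50 and 10.9. Slx4, the scaffold of the nucleases, went from 1.91 to 3.58 RPKM and did not pass (0.59, limma adjusted p = 0.0592). The RPKM of 8 of these genes in each day 4 liver are plotted.

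**Figure D2:**
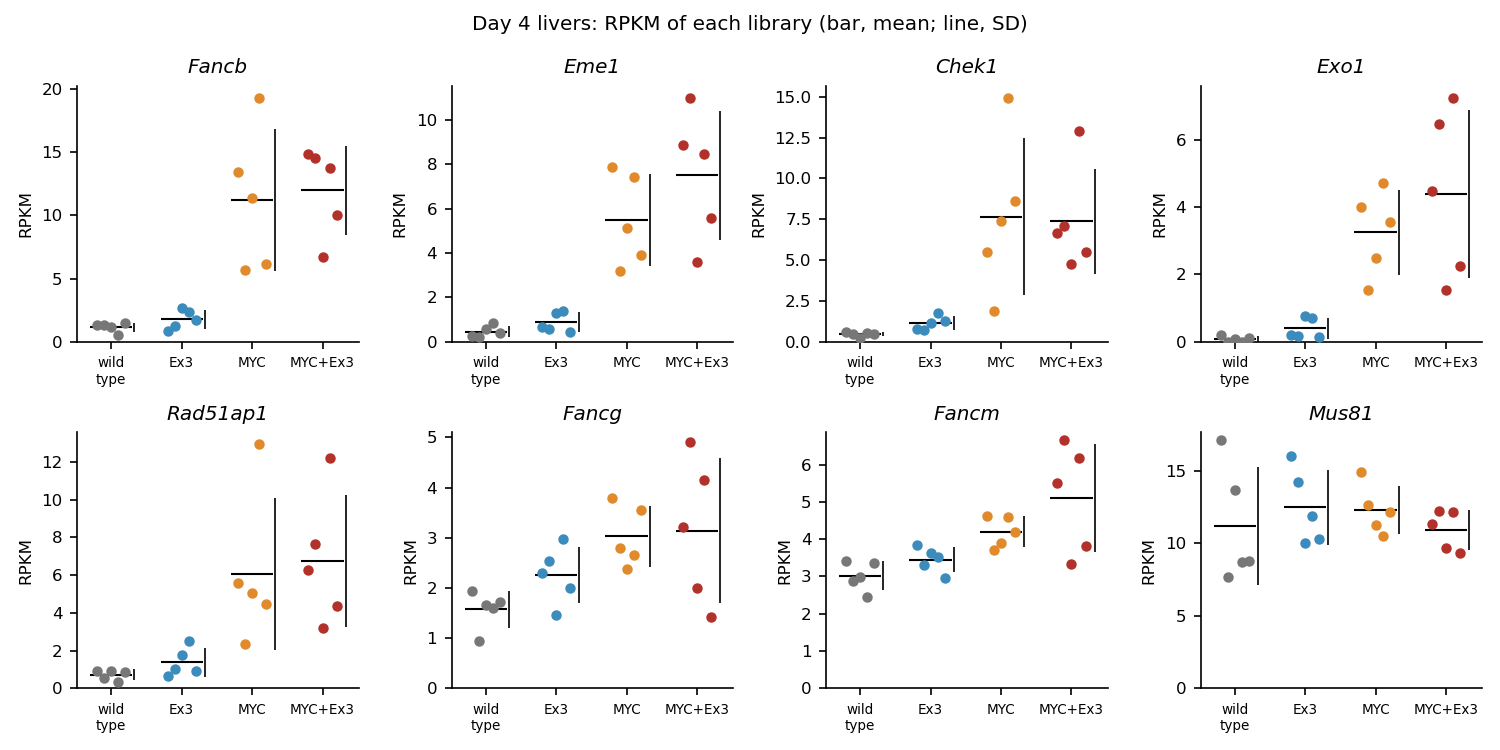
RPKM (vertical axis, linear, with its own scale for each gene) of Fancb, Eme1, Chek1, Exo1, Rad51ap1, Fancg, Fancm and Mus81 in each of the 20 day 4 livers, in the 4 genotype groups; points are livers, the bar is the group mean and the line its SD. MYC and MYC+Ex3 livers stand above all wild-type livers for the first 5 genes, and the 4 groups overlap throughout for Mus81.

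MYC without Ex3 was compared with the same 5 wild-type livers, so the values of this comparison and the last share their controls. Again 27 genes rose and none fell, against 14.1% of all genes tested that rose and 4.22% that fell, with a median log2 change of 0.97 (0.05 over all genes). In 25 genes all MYC livers lay above all wild-type livers, as in 9.39% of all genes. Fancb was at 13.5, 5.68, 11.4, 19.3 and 6.17 RPKM in MYC livers (log2 change 2.39 ± 0.29), and Chek1 at 5.52, 1.86, 7.37, 14.9 and 8.63 (2.37 ± 0.32). Both were lowest in replicate 2 and highest in replicate 4, and all 5 MYC livers lay above all wild-type livers for each. Eme1 rose by 2.11, Exo1 by 1.92 and Rad51ap1 by 1.89. Rad51c was called here (0.55, limma adjusted p = 0.0362) and Fancm was not (0.37, 0.0962), while in MYC+Ex3 livers it was the reverse. The test of the difference between the groups called neither. Mus81 (0.18, 95% interval -0.20 to 0.56) and Fancc (-0.03, -0.37 to 0.30) had the smallest changes with Xrcc3 (0.10, -0.39 to 0.60). Within the keratin-free livers, with 4 MYC and 2 wild-type livers, 19 genes were called. Leaving out single wild-type or MYC livers ended the calls of Fancg (7 livers), Rad51c (6), Rad50 (4) and Rbbp8 (4), with limma adjusted p of 0.0537 to 0.104. These 4 calls, and those of Mre11a and Palb2, were also lost when the first 3 digits of the numbers in the titles were fitted as a block (0.0607 to 0.247), an alternative added after seeing the data.

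Adding Ex3 to MYC, and MYC to Ex3, gave unlike results. Between MYC+Ex3 and MYC livers none of the 38 genes was called by limma, where 0.154% of all genes were, and none had an unadjusted p under 0.05, which 556 of all genes did. The median difference was 0.15, against -0.01 over all genes. Eme1 had the largest difference, 0.37, with a 95% interval of -0.16 to 0.90. Between MYC+Ex3 and Ex3 livers 26 genes rose and none fell, against 13.7% of all genes that rose and 3.75% that fell (median 1.08 against 0.01). In 25 genes all MYC+Ex3 livers lay above all Ex3 livers, as in 13% of all genes tested. Fancb rose there by 2.21, Eme1 by 2.13 and Chek1 by 1.92. Rad52 was called here (0.57, limma adjusted p = 0.0327), but not without any 1 of 6 livers: Ex3 1, 3, 4 or 5 or MYC+Ex3 1 or 2 (0.0589 to 0.102). Within the keratin-bearing livers, 3 of each group, that count was 14. Within the keratin-free ones it was 25, from only MYC+Ex3 1 and 2 against Ex3 1 and 2, all male by Xist and Ddx3y. The interaction, that is whether MYC acted differently with Ex3 than without, called 0 of the 38 genes and 0% of all genes tested by limma; 214 of all genes and none of the 38 had an unadjusted p under 0.05. For Chek1 the interaction was -0.45 and for Fancb -0.17 on the log2 scale, which leaving out single livers moved between -0.79 and -0.18 and between -0.36 and 0.04.

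Library by library, the median of the 38 genes over their wild-type means was -0.20 to 0.10 on the log2 scale in wild-type livers, 0.00 to 0.24 in Ex3, 0.63 to 1.21 in MYC and 0.68 to 1.38 in MYC+Ex3 livers. MYC replicate 5 had the lowest Mki67 of its group, 26.7 RPKM, and a median of 0.98; it also held RNA of both Xist (86.1 RPKM) and Ddx3y (4.74), genes that mark female and male cells.

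Rad51b, one of the strand exchange genes, varied widely within the wild-type and Ex3 groups, and was examined by sex after its values had been seen. It was at 1.11, 4.67, 9.24, 1.01 and 6.52 RPKM in wild type, 1.44, 1.11, 11.3, 8.31 and 2.17 in Ex3, 7.31, 3.66, 8.35, 10.3 and 11.4 in MYC and 9.12, 8.29, 10.7, 5.88 and 9.73 in MYC+Ex3 livers. With sex read from Xist and Ddx3y, the 5 males without MYC lay at 1.01 to 2.17 (median 1.11) and the 5 females at 4.67 to 11.3 (median 8.31), with no overlap. With MYC the 7 males lay at 3.66 to 10.7 (median 8.29) and the 3 females at 8.35 to 11.4 (median 9.73). The sex differences and the MYC changes by sex come from a separate limma fit of the day 4 livers. It grouped livers by sex and MYC, pooling wild type with Ex3 and MYC with MYC+Ex3, and held a term for Ex3. The 4-OHT livers were fitted by sex alone. In livers without MYC the female level exceeded the male by 1.96 ± 0.23 on the log2 scale (95% interval 1.49 to 2.43, limma adjusted p = 2.67e-05), and Rad51b was the 1 called gene of the 38, where 1.20% of all genes were called.

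In livers with MYC the sex difference of Rad51b was 0.40 (95% interval -0.11 to 0.92, limma adjusted p = 0.416), with 0 of the 38 and 1.43% of all genes called. MYC changed Rad51b by 1.88 ± 0.21 in males (limma adjusted p = 1.28e-06, with 32 of the 38 and 28.8% of all genes called) and by 0.33 in females (95% interval -0.22 to 0.87, limma adjusted p = 0.507, with 20 of the 38 and 8.10% of all genes called). The difference between these effects was -1.55 (95% interval -2.25 to -0.86), with an unadjusted p of 0.000157 that did not pass over all genes (limma adjusted p = 0.321), so it is not called. Leaving out each of the 20 livers in turn kept the sex difference at 1.86 to 2.08 and the male change at 1.78 to 2.0, all called. Without MYC replicate 5, whose sex genes were mixed, the number of the 38 called in females fell from 20 to 13. The share of all genes called in females fell as well, from 8.10% to 6.13%. In the 7 4-OHT livers the 3 females were at 2.20 to 3.01 RPKM and the 4 males at 1.46 to 1.97, without overlap, but the difference of 0.38 did not pass (limma adjusted p = 0.197, with 0.26% of all genes called and 0 of the 38). Groups held unequal numbers of males (2 wild type, 3 Ex3, 3 MYC and 4 MYC+Ex3); with sex in the model Rad51b was called higher in MYC (1.20, limma adjusted p = 0.0158) and MYC+Ex3 livers (1.59, 0.00275) against wild type. The same model ended the calls of Fancg (0.53, limma adjusted p = 0.103) and Rbbp8 (0.69, 0.0589) in MYC+Ex3 livers.

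**Figure D3:**
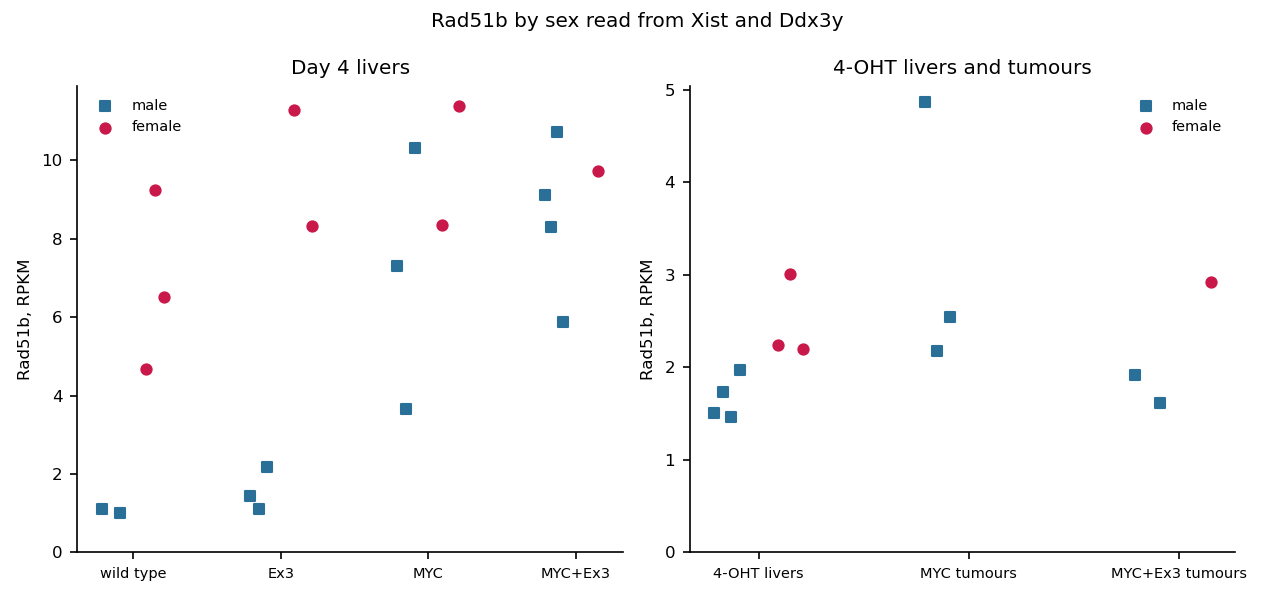
RPKM of Rad51b in each day 4 and tumour-arm library by group, with females and males (from Xist and Ddx3y) marked apart; the arms have separate scales. Males without MYC sit at 1.01 to 2.17, below all females at day 4, and males with MYC reach 3.66 to 10.7.

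Tumours were compared with the 7 4-OHT livers, which serve both kinds of tumour. In MYC+Ex3 tumours 34 of the 38 genes rose and none fell, against 33.3% of the 16655 genes tested that rose and 17.7% that fell. The median log2 change was 1.00, against 0.07 over all genes, and in 34 genes all 3 tumours lay above all 7 livers, as in 30.9% of all genes. In MYC tumours 34 also rose and none fell, against 28.4% of all genes that rose and 12.2% that fell, with a median of 0.78 (0.07 over all genes) and 31 genes without overlap, against 21.1%. With only the 4 4-OHT livers whose titles start S14, or the 3 that start S15, 30 and 32 genes rose in MYC tumours and 33 and 32 in MYC+Ex3 tumours. Calls in MYC tumours that were lost without a single tumour were Bard1 and Xrcc3 (tumour 2 or 3) and Fance and Fancg (tumour 3), at limma adjusted p of 0.0525 to 0.159, and in MYC+Ex3 tumours Xrcc3 was lost without tumour 3 (0.0772). Rescaling, recovered reads and the S15 livers alone each ended the calls of Xrcc3 in both kinds of tumour and of Fancg in MYC tumours (0.0566 to 0.185), and the S14 livers alone ended those of Bard1, Fancg and Xrcc3 in MYC tumours (0.0723 to 0.0988). Summed macrophage markers (7 genes in the table) were lower in MYC+Ex3 tumours (30.4 to 36.7 RPKM) than in 4-OHT livers (82.8 to 114), endothelial ones were at 17.9 to 19.2 against 35.6 to 59.7 and erythroid ones at 75.9 to 94.7 against 18.5 to 37.9. Lymphocyte markers were at 2.83 to 3.41 against 5.45 to 9.82, and cholangiocyte ones at 3.64 to 8.43 against 9.96 to 14.7. In MYC tumours the endothelial sum was 21.7 to 32.6 RPKM, also below the livers, while macrophage (19.2 to 84.2), lymphocyte (2.0 to 8.88), erythroid (15.2 to 73.8) and cholangiocyte sums (6.68 to 19.6) overlapped with the livers. No defining gene of these 5 lists was at 0 in every library of a group, and the part of the cell mix in the changes was not tested.

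Of the end-binding genes all 6 rose in MYC+Ex3 tumours (median 1.25). Blm was at 0.400 to 0.798 RPKM in 4-OHT livers (median 0.539), 1.66, 3.95 and 3.82 in MYC tumours and 4.43, 5.74 and 4.94 in MYC+Ex3 tumours. Every tumour lay above every liver, and the 3 MYC+Ex3 tumours above the 3 MYC tumours. Blm rose by 1.91 ± 0.18 in MYC+Ex3 tumours (limma adjusted p = 3.81e-06) and by 1.32 ± 0.18 in MYC tumours (0.00012). Exo1 was at 0.141 to 0.309 RPKM in livers (median 0.203), 0.844, 2.15 and 4.02 in MYC tumours and 3.21, 3.37 and 3.12 in MYC+Ex3 tumours. The MYC+Ex3 tumours were close together and the MYC tumours spread around them, with changes of 1.80 ± 0.21 (limma adjusted p = 2.05e-05) and 1.34 ± 0.21 (0.000353). Mre11a rose by 1.33 in MYC+Ex3 tumours. Nbn was called in MYC+Ex3 tumours (0.60, limma adjusted p = 0.00932) and not in MYC tumours (0.40, 0.0744), and the difference between the 2 was not called.

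All 5 signalling genes (median 1.29) and all 5 BRCA genes (median 0.92) rose in MYC+Ex3 tumours. Chek1 rose by 1.64 and was at 3.08 to 3.86 RPKM in those tumours against 0.275 to 0.574 in livers. Brca1 was at 0.588 to 1.14 RPKM in livers (median 0.963), 2.34, 4.54 and 3.85 in MYC tumours and 4.57, 6.58 and 4.96 in MYC+Ex3 tumours. All tumours lay above all livers, with changes of 1.71 ± 0.16 (limma adjusted p = 4.26e-06) and 1.21 ± 0.16 (0.000112). Brca2 rose by 1.54 in MYC+Ex3 tumours, and Brip1, with the smallest change of the 5, by 0.74.

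Of the strand exchange genes 7 of 9 rose in MYC+Ex3 tumours (median 0.72). Rad51ap1 was at 0.403 to 0.783 RPKM in livers (median 0.649), 1.12, 3.40 and 3.98 in MYC tumours and 4.05, 5.22 and 4.63 in MYC+Ex3 tumours. MYC tumour replicate 1 stood apart as the lowest tumour, and its Mki67 was lowest too. Its changes were 1.79 ± 0.21 (limma adjusted p = 2.43e-05) and 1.15 ± 0.21 (0.00111). Rad51c, which acts in strand exchange, was at 0.206 to 0.390 RPKM in livers (median 0.280), 0.511, 0.484 and 0.839 in MYC tumours and 0.544, 0.673 and 0.395 in MYC+Ex3 tumours. The lowest tumour was just above the highest liver, and the change of 0.25 ± 0.07 in MYC+Ex3 tumours (limma adjusted p = 0.0124) was the smallest called; without MYC+Ex3 tumour 2 it was not called (0.0800), nor with the S14 livers only (0.0912). Rad51d rose in MYC tumours (0.55, limma adjusted p = 0.00564; 0.0511 with the S14 livers only) and did not pass in MYC+Ex3 tumours (0.13, 0.425). Rad51b passed in neither (0.44 and 0.06), but with sex in the model it was called in MYC tumours (0.62, limma adjusted p = 0.0236), which were all 3 male by Xist and Ddx3y, as were 4 of the 7 livers.

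In the core complex 7 of 8 genes rose (median 0.85), Fancb by 1.63 and Fanca by 1.25, with Fancc again not called (0.19, 95% interval -0.03 to 0.42). Fancd2 and Fanci rose by 1.42 and 1.08. Of the nucleases, Eme1 was at 0.316 to 0.803 RPKM in livers (median 0.539), 1.69, 4.51 and 6.94 in MYC tumours and 5.17, 5.33 and 5.20 in MYC+Ex3 tumours. All tumours lay above all livers, and at 2.01 ± 0.24 (limma adjusted p = 2.54e-05) it was the largest change of the 38 genes on the log2(RPKM + 1) scale, as it was in MYC tumours (1.67 ± 0.24, 0.00021); the folds of the authors' deposited table put Exo1 above it in both and Chek1 in MYC tumours. Slx4 was at 0.845 to 1.19 RPKM in livers (median 1.16), 1.95, 2.09 and 2.64 in MYC tumours and 2.27, 1.25 and 2.10 in MYC+Ex3 tumours. Replicate 2 of the MYC+Ex3 tumours was just above the livers. Its change of 0.45 ± 0.13 (limma adjusted p = 0.0103) was not called without MYC+Ex3 tumour 1 (0.0678) or 3 (0.0568), with the S15 livers only (0.122), or when libraries were rescaled (0.0515). Mus81 was at 2.83 to 4.36 RPKM in livers (median 3.33), 5.08, 3.52 and 5.67 in MYC tumours and 3.37, 2.37 and 3.80 in MYC+Ex3 tumours, and passed in neither comparison (0.38, limma adjusted p = 0.0591, and -0.08, 0.689). The values of 8 genes in every library of the tumour arm are plotted.

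**Figure D4:**
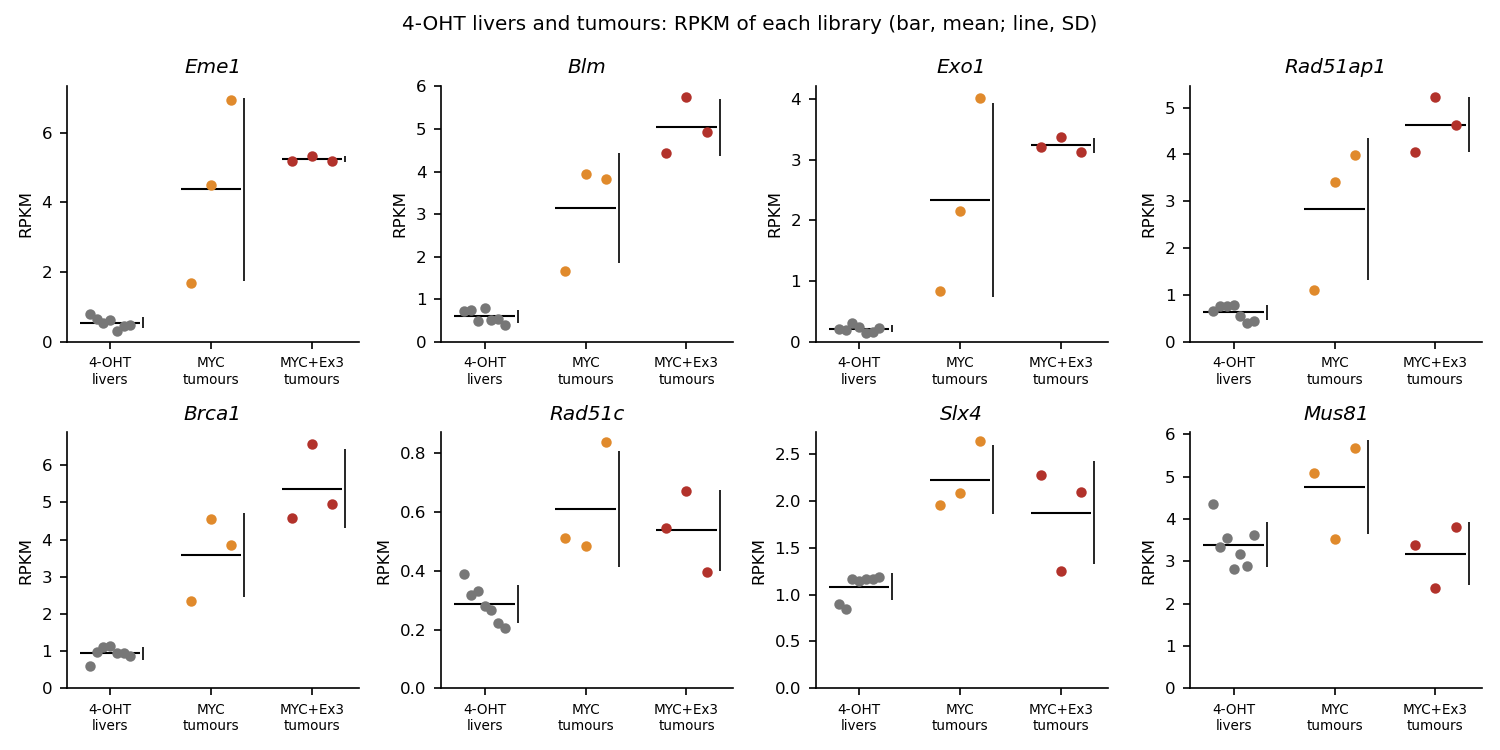
RPKM (vertical axis, linear, with its own scale for each gene) of Eme1, Blm, Exo1, Rad51ap1, Brca1, Rad51c, Slx4 and Mus81 in each of the 7 4-OHT livers, 3 MYC tumours and 3 MYC+Ex3 tumours; points are libraries, the bar is the group mean and the line its SD. All tumours stand above all livers except for Mus81.

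The 2 kinds of tumour were then compared with each other. Of the 38 genes 1 was called, Rbbp8, which was higher in MYC+Ex3 tumours, where 1.55% of all genes were called higher and 2.95% in either direction. Rbbp8 was at 2.68, 3.86 and 3.60 RPKM in MYC tumours and at 5.05, 5.18 and 5.38 in MYC+Ex3 tumours, against 1.59 to 2.06 in livers. All MYC+Ex3 tumours lay above all MYC tumours, and the change was 0.51 ± 0.12 (limma adjusted p = 0.0426). The call was lost with a pseudocount of 0.1 (0.0507), with a sex term (0.0528), with sample weights (0.156), when only the 6 tumours were fitted (0.363), and without any of the 7 4-OHT livers, MYC tumour 1 or any MYC+Ex3 tumour (0.0534 to 0.129), and the adjusted p in the authors' deposited table is 0.0639. An unadjusted limma p under 0.05, which 2900 of the 16655 genes tested had, was found for a further 8 of the 38 genes. Among them, and named after their values were seen, Rad51ap1 differed by 0.64 (limma adjusted p = 0.208), Fanca by 0.61 (0.0759) and Blm by 0.59 (0.157), and Mus81 by -0.46 (0.199) and Rad51d by -0.41 (0.189). Rad51d, at 4.18, 2.26 and 2.80 RPKM in MYC and 1.87, 2.13 and 2.02 in MYC+Ex3 tumours, was the 1 gene with all MYC+Ex3 tumours below all MYC tumours, as in 8.39% of all genes, and 7 genes had them above, as in 7.78%. Eme1 differed by 0.35, with an interval of -0.27 to 0.97.

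Between the arms, which share no library, the changes can be set side by side. All 27 genes called in MYC+Ex3 livers were also called in MYC+Ex3 tumours, where they made up 79.4% of the 34. The 7 further genes of the tumours were Fance, Fancl, Nbn, Rad51c, Rad52, Slx4 and Xrcc3. Likewise all 27 genes called in MYC livers were among the 34 of MYC tumours. In the 4 comparisons of MYC-bearing with control tissue 26 genes rose in each, while Fancc, Mus81 and Rad51b were called in none without a sex term. With 34 of the 38 called in each kind of tumour, a large overlap follows from the counts alone. Overlaps over all genes were not counted. Across the 38 genes the log2 changes of the arms had a Pearson r of 0.825 and a Spearman rho of 0.837 for MYC+Ex3 and of 0.853 and 0.831 for MYC; these are correlations across genes, which are not independent replicates and share their length and base composition between the arms. Blm had a change of 1.91 in MYC+Ex3 tumours and 1.39 at day 4, Chek2 one of 1.06 and 1.89, and Rad51b one of 0.06 and 1.09. Differences between the arms were not tested. For the same reads the RPKM of the tumour arm run lower, so the added 1 shrinks its changes more than those of day 4. On the log2 scale of the authors' deposited table the medians of the 38 were 1.34 in MYC+Ex3 livers and 1.35 in MYC+Ex3 tumours. Brca1 was at 2.21 and 2.26 in the authors' deposited table, against 1.86 and 1.71 by limma.

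**Figure D5:**
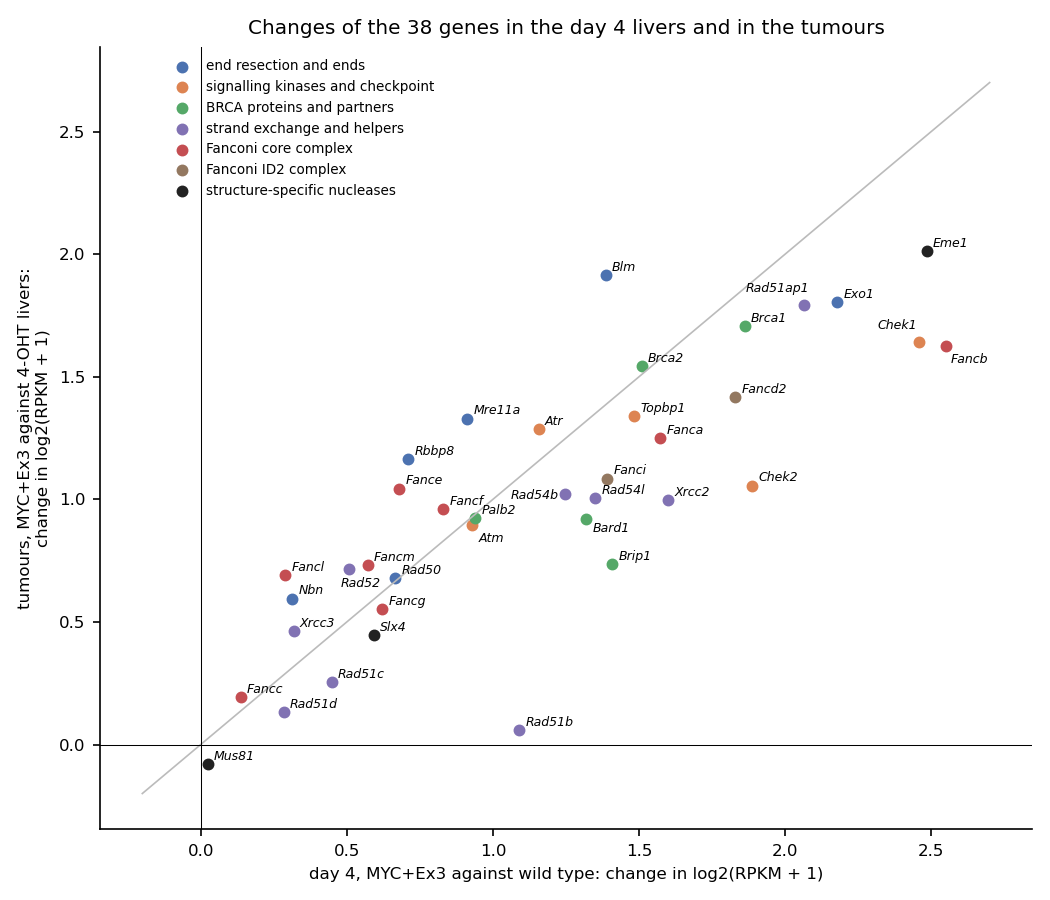
The log2(RPKM + 1) change of each of the 38 genes in MYC+Ex3 day 4 livers against wild type (horizontal axis) and in MYC+Ex3 tumours against 4-OHT livers (vertical axis), with a grey line where both are equal and colours for the role of each gene. Fancb and Chek1 lie below the line and Blm and Mre11a above it, Mus81 and Fancc lie near 0 in both, and Rad51b lies near 0 in the tumours alone. Because the RPKM of the tumour arm run lower, the added 1 shrinks its changes more, and the line is only a rough guide.

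Other genes of the same and neighbouring pathways were listed beside the 38. Of all genes tested in MYC+Ex3 livers, 14.6% rose and 4.8% fell. Of 27 other recombination genes tested in MYC+Ex3 livers 15 rose and none fell (median 0.47), led by Parpbp (3.11), Fignl1 (3.06) and the helicase gene Hells (3.02). Among 17 other Fanconi and crosslink repair genes 7 rose (median 0.54), led by Uhrf1 (2.96), Ube2t, which encodes the enzyme that passes ubiquitin to FANCD2 (2.64), and Apitd1 (2.09). Of 22 other checkpoint genes 9 rose (median 0.50), led by the histone gene H2afx (2.46), Tipin (1.40) and Cdc25a (1.25). Non-homologous end joining, which rejoins ends without a template, had 3 of 11 genes higher (median 0.36): Xrcc6 (1.17) and Xrcc5 (0.76), which encode the Ku proteins, and Lig4 (0.59). Replication and proliferation genes moved most, with 23 of 24 higher and a median of 2.23, led by Ccnb1 (5.15), Ccna2 (4.31) and Mki67 (4.29).

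Of all genes tested in MYC+Ex3 tumours, 33.3% rose and 17.7% fell. In these tumours the same lists had 18 of 28 recombination genes higher (median 0.56, led by Hells at 2.34, Fignl1 at 2.09 and Dna2 at 1.78), and 13 of 17 Fanconi genes higher and 1 lower (1.04, led by Uhrf1 at 2.38, Ube2t at 1.70 and Apitd1 at 1.45). There 20 of 22 checkpoint genes were higher (0.75, led by Tipin at 1.97, Cdc25a at 1.78 and Clspn at 1.54), as were 7 of 11 end joining genes, with 1 lower (0.54, led by Nhej1 at 1.37, Xrcc6 at 1.25 and Xrcc5 at 1.12). All 24 proliferation genes were higher (1.83, led by Ccne1 at 2.61, Ccnb1 at 2.33 and Mcm2 at 2.31), and Mki67 rose by 1.86. The median of the proliferation genes exceeded that of the 38 repair genes in both arms, by description and not by test.

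The authors' deposited table gives its own comparisons. Of the 38 genes, those higher in the authors' deposited table numbered 26 in MYC and 28 in MYC+Ex3 livers, where 12.5% and 16.3% of all genes with an adjusted p were higher, with none lower. In the authors' deposited table they numbered 33 in MYC and 34 in MYC+Ex3 tumours, where 24.4% and 30.7% of all genes were higher, again with none lower. The authors' deposited table called 0 of the 38 in Ex3 against wild-type livers (34 of them with an adjusted p), in MYC+Ex3 against MYC livers or between the tumours, where it called 0.765%, 0.276% and 4.49% of all genes in either direction. For MYC+Ex3 against wild-type livers the authors' deposited table gives as its 6 highest folds of the 38 genes 18.2 for Exo1, 11.2 for Chek1, 11.1 for Fancd2, 10.1 for Eme1, 8.16 for Fancb and 6.52 for Rad51ap1. For MYC+Ex3 tumours its 8 highest folds in the authors' deposited table are 12.7 for Exo1, 7.99 for Eme1, 7.85 for Fancd2, 7.19 for Chek1, 7.04 for Blm, 6.26 for Rad51ap1, 5.68 for Fancb and 4.78 for Brca1. For MYC tumours the authors' deposited table gives 7.89 for Exo1, 6.15 for Chek1 and 5.96 for Eme1.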

How the data were processed

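The authors deposited 1 table with the RPKM of 21671 genes in 33 libraries, together with a log2 fold change and an adjusted p-value for each of 7 comparisons of their own. Per the labels' protocols, libraries were made with a TruSeq stranded total RNA kit. The submitters' processing notes name TopHat2 2.0.8, SAMtools, featureCounts 1.4.5-p1, DESeq2 and the build mm9; annotation and filters are not given in the sources used here. Within a gene the deposited RPKM were whole multiples of 1 read (within 0.0001), which gave reads for all 20485 genes above 0; these reads are quoted, and used in an alternative test on log2 reads per M reads in genes (with 0.5 added).

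The test was limma 3.58.1 (R 4.3.3), two-sided, fitted to log2(RPKM + 1) with the trend option of its empirical Bayes step. Benjamini-Hochberg adjustment ran over all genes tested, and calls were made under 0.05. Genes entered an arm's fit when most of its libraries had an RPKM above 0, and the groups of an arm were fitted together. Changes on this scale understate those of genes with low RPKM. In all, 9 comparisons were fitted, and the script was tested on simulated data.

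The 38 genes, the lists of other genes and the rule for giving every library's values (the 5 largest and 2 smallest called changes in each MYC+Ex3 comparison with controls) were chosen with earlier results of these data known. Per list of other genes the 3 largest called changes are named. Replicate numbers follow the order of the records, and Xist and Ddx3y stood in for the sex of each mouse, which is not labelled. Alternatives were another pseudocount, 2 other filters, rescaling, recovered reads, a fit of only the groups compared, sample weights, a sex covariate, a keratin term, subsets by keratin and by the numbers of the 4-OHT livers, and leaving out each library. A block for the first digits of the day 4 title numbers was added after seeing the data.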

Additional observations from a re-analysis of the deposited data

Results flagged for a closer look

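Among 55 sets of 1 gene in 1 group of 4 to 10 libraries, 1 held a library far from the others: Chek1 in MYC+Ex3 liver replicate 4, at 12.9 RPKM, where the next highest liver of the group was at 7.09. The gap was 0.717 of the range of the group by Dixon's measure. Chance alone gives about 1 such set in 20.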

How the results depend on the processing

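Of 151 called changes of single genes, none changed sign under any alternative, and 4021 of 4156 values stayed called. The 151 include the sex difference and the male change of Rad51b, fitted after its values were seen and varied only by leaving out livers. The other 135 fell out of the calls, in 38 changes. Leaving out 1 library at a time, the number of the 38 genes called was 23 to 28 for MYC and 25 to 29 for MYC+Ex3 against wild type, 25 to 28 for MYC+Ex3 against Ex3, 30 to 36 for MYC and 32 to 34 for MYC+Ex3 tumours against 4-OHT livers and 0 to 2 between the tumours. It was 0 in each for Ex3 against wild type, MYC+Ex3 against MYC and the interaction. Under the other alternatives the number was 19 to 28 for MYC and 23 to 34 for MYC+Ex3 against wild type. For MYC+Ex3 against Ex3 it was 14 to 33. Against 4-OHT livers it was 30 to 35 for MYC and 32 to 34 for MYC+Ex3 tumours. The 26 genes called for MYC+Ex3 against Ex3 were 14 within the keratin-bearing livers (13 of them shared), with 3 livers a group. Between the tumours, the count of 1 was 0 with a pseudocount of 0.1, a fit of only those groups, sample weights or a sex covariate, and 2 on recovered reads (Rbbp8 higher and Rad51d lower, by -0.61); the cause was not tested. No paired analysis was possible because the labels give no replicate numbers, and those used here only name samples. The day 4 titles hold longer numbers, whose meaning the labels do not give; with their first 3 digits as a block, chosen after seeing the data, 21 genes were called for MYC and 27 for MYC+Ex3 against wild type, 28 for MYC+Ex3 against Ex3 and 0 in the other 3 day 4 comparisons. Wild-type 2, Ex3 3 and MYC+Ex3 5 have a first number of their own and add nothing to that fit. The fit of only the groups compared was not run for the interaction, which uses all 4 groups, nor the keratin-bearing subset where it holds 1 MYC liver. Wild-type livers had 0 to 21 reads in Exo1, Eme1, Chek1, Rad51ap1, Fancb, Fancd2 and Fanca, so the size of these folds, unlike their direction, is limited by counting.

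Signs turned only for changes that were not called. With keratin-free livers alone the changes were -0.068 for Fancd2 in Ex3 livers, -0.091 for Xrcc3, -0.15 for Fance, -0.25 for Mus81 and -0.012 for Rad51d in MYC livers, -0.35 for Mus81 in MYC+Ex3 livers, 0.27 for Fancc in MYC+Ex3 against Ex3 livers, and 0.025 for Chek1 and 0.84 for Fancb in the interaction. A keratin term gave -0.12 for Xrcc3 in MYC livers, and -0.074 for Chek1 and 0.018 for Mus81 between MYC+Ex3 and MYC livers. The block gave -0.16 for Exo1 and -0.16 for Fancd2 in Ex3 livers, -0.12 for Mus81 in MYC+Ex3 livers, 0.030 for Fancc in MYC+Ex3 against Ex3 livers, and 0.44 for Chek1 and 0.38 for Fancb in the interaction. Rescaling gave -0.050 for Mus81 in MYC+Ex3 livers, -0.034 for Fancc in MYC tumours, and -0.10 for Rad51b and -0.013 for Rad51d in MYC+Ex3 tumours. A sex covariate gave 0.0011 for Fancc in MYC livers and -0.067 for Mus81 in MYC+Ex3 livers. Weights gave 0.0089 for Fancc in MYC+Ex3 against Ex3 livers and -0.057 for Rad51b in MYC+Ex3 tumours, where recovered reads gave -0.086. Without Ex3 replicates 3 and 4 together, chosen after seeing the data as were the fits of Rad51b by sex, Fancd2 in Ex3 livers was at -0.016. Leaving out 1 library at a time, ranges crossed 0 in MYC livers for Fancc (-0.16 to 0.038) and Xrcc3 (-0.012 to 0.19), in MYC+Ex3 livers for Mus81 (-0.085 to 0.18), between MYC+Ex3 and MYC livers for Chek1 (-0.26 to 0.36) and Fancb (-0.021 to 0.38), in the interaction for Fancb (-0.36 to 0.041), in MYC tumours for Fancc (-0.0050 to 0.20), in MYC+Ex3 tumours for Rad51b (-0.11 to 0.18) and Mus81 (-0.19 to 0.069), and between the tumours for Eme1 (-0.084 to 0.70).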
